A study of Mus musculus with 40 samples.

Results

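The 10 genes described here are an FGF ligand, FGF receptors and genes through which the FGF to ERK pathway acts and is damped: *Fgf4*, *Fgfr1*, *Fgfr3*, *Fgfr4*, *Spry2*, *Spry4*, *Dusp6*, *Etv4*, *Etv5* and *Egr1*. They were taken by symbol from a table of 56748 mouse genes counted by total RNA-seq in 40 libraries, and all 10 were among the 23399 genes that passed the filter on low counts. The cells were male mouse embryonic stem (mES) cells kept naive with LIF, 3 µM CHIR-99021 (a GSK3 inhibitor) and 1 µM PD0325901 (a MEK inhibitor), and epiblast-like cells (EpiLCs), made from them by 48 h of culture with activin A at 12 ng/mL and FGF at 20 ng/mL. At each stage there were 8 wild-type (WT) libraries and 4 each of LBRKO, TKO and QKO. LBRKO cells carry frameshift indels in *Lbr*, the gene of the lamin B receptor; several such clones were made, and the labels do not say which clone or clones each library holds. TKO cells lack the lamin genes *Lmna*, *Lmnb1* and *Lmnb2*. QKO cells are a single clone in which *Lbr* was also disrupted in the TKO line. The replicates of a group are separate wells, so p-values measure the spread between wells; whether that of LBRKO also spans clones is not given in the sources used here.

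FGF4, made by the stem cells themselves, binds FGF receptors and, through RAS and RAF, switches on MEK, which phosphorylates ERK. ERK then raises the transcription of the transcription factors *Egr1*, *Etv4* and *Etv5* and of its own inhibitors: the Sprouty proteins, which damp receptor signalling upstream of RAS, and the phosphatase DUSP6, which removes the activating phosphates from ERK. In mouse embryos and stem cells, this pathway drives exit from the naive state, and a MEK inhibitor holds cells in it. CIC, a repressor that ERK signalling inactivates, is known to bind the *Etv4*, *Etv5*, *Dusp6* and *Spry4* genes in mammals.

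The promoters of *Dusp6*, *Etv4* and *Etv5* are printed because these genes answer to the same repressor in textbook accounts but moved very differently here; that of *Spry2* is printed as a member without such a match. Each run holds the 250 bases before and the first 50 bases of the canonical transcript (GENCODE M39 annotation, GRCm39 genome), 5′ to 3′ on the gene's own strand. Capitals mark the CIC octamers TGAATGAA, TGAATGGA, TCAATGAA and TCAATGGA on either strand, letters that were searched for after the sequences had been read.
Dusp6, chr10:99098818-99099117, plus strand: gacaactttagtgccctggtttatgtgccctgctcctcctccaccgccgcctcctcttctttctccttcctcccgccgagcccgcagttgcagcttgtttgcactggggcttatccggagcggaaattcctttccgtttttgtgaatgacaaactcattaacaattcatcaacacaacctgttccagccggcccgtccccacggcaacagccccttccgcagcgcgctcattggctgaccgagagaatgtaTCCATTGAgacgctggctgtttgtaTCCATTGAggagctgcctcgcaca
Etv4, chr11:101676148-101676447, minus strand: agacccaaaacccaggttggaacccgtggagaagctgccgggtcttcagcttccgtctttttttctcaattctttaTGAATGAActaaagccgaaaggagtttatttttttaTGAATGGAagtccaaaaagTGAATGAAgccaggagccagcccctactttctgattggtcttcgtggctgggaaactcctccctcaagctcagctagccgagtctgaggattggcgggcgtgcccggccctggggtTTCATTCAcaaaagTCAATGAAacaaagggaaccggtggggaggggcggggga
Etv5, chr16:22258434-22258733, minus strand: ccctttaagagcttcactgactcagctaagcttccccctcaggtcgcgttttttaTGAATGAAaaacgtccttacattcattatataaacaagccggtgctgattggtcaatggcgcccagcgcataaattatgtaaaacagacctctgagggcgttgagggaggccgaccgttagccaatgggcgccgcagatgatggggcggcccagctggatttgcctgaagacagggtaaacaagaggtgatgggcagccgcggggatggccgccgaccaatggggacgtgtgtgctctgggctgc
Spry2, chr14:106134743-106135042, minus strand: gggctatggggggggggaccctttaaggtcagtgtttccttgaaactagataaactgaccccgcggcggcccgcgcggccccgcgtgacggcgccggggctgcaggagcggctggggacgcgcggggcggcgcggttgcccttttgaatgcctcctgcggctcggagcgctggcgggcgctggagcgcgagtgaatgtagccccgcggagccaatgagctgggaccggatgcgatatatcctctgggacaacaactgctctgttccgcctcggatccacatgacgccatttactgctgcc
*Etv4* held 5 octamers, *Dusp6* held 2, and *Etv5* and *Spry4* held 1 each. The promoters of the other 6 members held none. Of 21770 protein-coding promoters of the same length, 3.65% held at least 1 octamer and 0.322% held 2 or more. The ETS factor letters CCGGAAG and CAGGAAG, present in 10.3% and 12.3% of all promoters, and the CArG box bound by SRF, present in 1.54%, were in none of the 10 windows. A match of letters is a description and shows no binding.

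Libraries held 22.6 M to 48.9 M gene counts. WT replicates 1 to 4 (25.4 M to 33.5 M) lay in the range of TKO and QKO (22.6 M to 33.6 M), and WT replicates 5 to 8 (39.4 M to 48.9 M) overlapped that of LBRKO (39.7 M to 48.1 M). The labels name no batch, but several members also differed between these sets of WT libraries, so the values against each set are given wherever a set made or ended the call of a member against WT. LBRKO EpiLC replicates 1 and 2 stood apart from 3 and 4, with *Fgf4* at 215 and 208 CPM against 142 and 150 CPM, *Spry4* at 173 and 192 against 110 and 109 CPM and *Egr1* at 74.8 and 69.8 against 122 and 128 CPM. WT EpiLC replicates 5 and 6 likewise stood apart from 7 and 8 in *Fgf4* (185 and 186 against 141 and 152 CPM). In *Spry4* they did so too (143 and 144 against 81.7 and 85.9 CPM), but not in *Egr1* (132 and 104 against 153 and 112 CPM). What split these libraries was not tested. Of the targeted genes, *Lmnb1* was at 481 to 569 CPM in WT and LBRKO and at 0.535 to 15.5 CPM in TKO and QKO, and *Lmnb2* was at 87.2 to 120 and 1.01 to 4.71 CPM. *Lmna* was at 45.1 to 71.5 CPM in WT mES cells and 14.1 to 21.0 CPM in TKO and QKO mES cells, but in EpiLCs, at 9.28 to 13.0 CPM in WT and 6.95 to 9.43 CPM in TKO and QKO, it was not called lower. *Lbr*, whose indels need not remove the RNA, was at 145 to 403 CPM in LBRKO against 347 to 513 in WT. All 6 naive markers tested fell and all 5 EpiLC markers rose on passage in each genotype. Primitive endoderm markers summed to at most 22.1 CPM in any library (7 genes) and fibroblast markers to at most 14.0 CPM (6 genes). Levels are CPM, each gene's counts scaled to 1 M counts of a TMM-adjusted library. A gene is said to rise or fall here where edgeR's quasi-likelihood test gave an adjusted p under 0.05 and the change was over 2-fold.

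**Figure D1:**
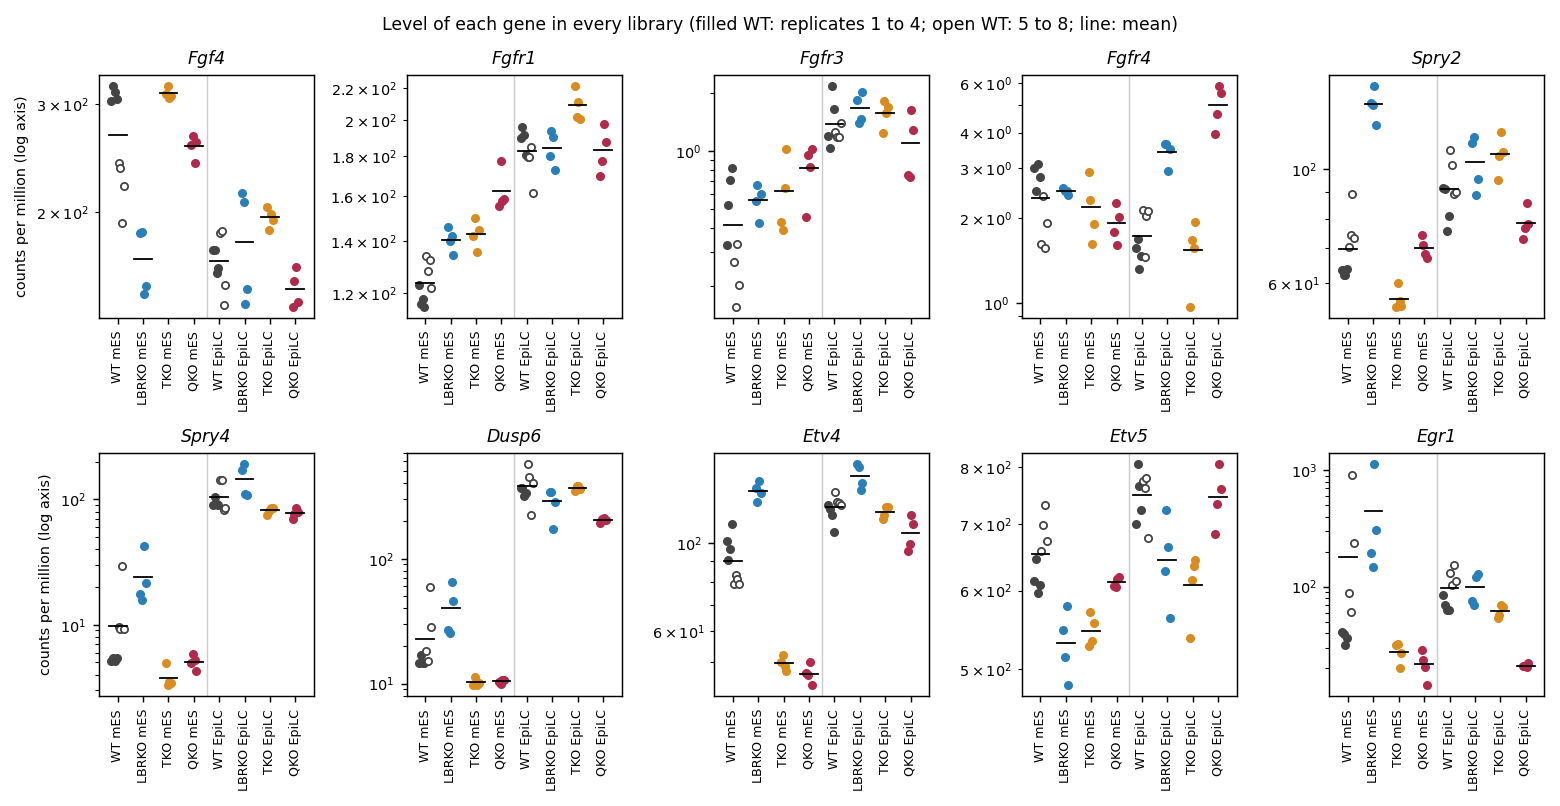
Level of each of the 10 genes in every library, in CPM on a log axis, by group; points are libraries and lines are group means. Filled WT points are replicates 1 to 4 and open ones 5 to 8. *Dusp6* and *Spry4* separate the 2 stages in every genotype, whereas *Egr1* spans 31.8 to 913 CPM within WT mES cells.

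Passage from naive to EpiLC medium withdraws the MEK inhibitor, CHIR-99021 and LIF and adds FGF and activin A. The coating of the dishes also changes, so no change on passage can be assigned to a single component. In WT cells, 3 of the 10 members rose, *Dusp6*, *Spry4* and *Fgfr3*, and none fell, beside 18.2% of all tested genes called higher and 12.9% called lower. At any size of change 9 of 10 passed the adjusted p threshold, against 64.3% of all genes, and for 5 of 10 the libraries of the stages did not overlap, against 35.4%. The members' median log2 fold change was 0.42, and that of all genes 0.07.

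*Dusp6* (chromosome 10, 99099093 to 99103351) had the largest change. Its level in WT mES cells was 14.6 CPM at the lowest, 16.0 at the median and 59.8 at the highest, and in WT EpiLCs 224, 370 and 574 CPM. No EpiLC library was as low as any mES library. The log2 fold change was 4.06 ± 0.24 (SE; 16.7-fold, adjusted p = 7.64e-19), and it was 4.52 in WT replicates 1 to 4 and 3.77 in 5 to 8. The same passage gave 2.82 ± 0.32 in LBRKO, 5.16 ± 0.36 in TKO and 4.30 ± 0.35 in QKO cells. In LBRKO 3 members rose and 1 fell on passage (26.5% of all genes were called, and 52.3% passed at any fold), with no overlap for 7 members (46.2%). In TKO 4 rose and none fell (17.2% of all genes were called higher and 13.1% lower), with no overlap for 8 (53.1%). In QKO 4 rose and none fell (17.7% higher and 12.6% lower), with no overlap for 6 (55.1%).

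*Spry4* (chromosome 18, 38719300 to 38734468), a Sprouty gene that is overlapped by 2 antisense transcripts, rose alongside. It was at 5.12, 7.31 and 29.4 CPM (lowest, median, highest) in WT mES cells and at 81.7, 91.8 and 144 CPM in WT EpiLCs, again without overlap. The log2 fold change was 3.39 ± 0.25 (10.5-fold, adjusted p = 1.56e-15) in WT, 2.59 ± 0.34 in LBRKO, 4.43 ± 0.39 in TKO and 3.95 ± 0.38 in QKO. How reads were assigned by strand is not given in the sources used here, and without strand, antisense reads cannot be told from those of the gene. The same holds for *Fgfr1* and *Fgfr3*, each overlapped by 1 antisense transcript.

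The other Sprouty gene and the ETS factors did not follow. *Spry2* (chromosome 14, 106129381 to 106134253) went from 69.9 ± 9.3 to 91.3 ± 10.6 CPM (SD, n = 8; log2 fold change 0.38 ± 0.07, adjusted p = 5.70e-06). *Etv5* (chromosome 16, 22200059 to 22258469) went from 653 ± 47 to 749 ± 43 CPM (0.20 ± 0.05, adjusted p = 0.000871). *Etv4* (chromosome 11, 101660568 to 101676197) went from 90.5 ± 12.1 to 123 ± 8.3 CPM (0.45 ± 0.06, adjusted p = 1.18e-08). All 3 changes passed the adjusted p threshold but not the fold threshold, and for each the libraries of the 2 stages overlapped. Per kilobase of exon, *Etv5* was already the most abundant member in naive WT cells, with 159 CPM per kb, followed by *Fgf4* with 83.5, whereas *Dusp6* had 7.28 and *Spry4* 2.06. In WT EpiLCs, *Dusp6* reached 122 CPM per kb and *Spry4* 21.9.

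*Egr1* (chromosome 18, 34992876 to 34998037), an immediate early gene with a short-lived RNA, gave no call in WT (-0.89 ± 0.47, adjusted p = 0.0975). Its level was 31.8, 50.5 and 913 CPM in WT mES cells and 63.0, 94.9 and 153 CPM in WT EpiLCs, and the stages overlapped. The direction turned with the set of libraries: it was 0.94 (adjusted p = 0.0222) in WT replicates 1 to 4 and -1.37 (adjusted p = 0.0246) in 5 to 8. The 4 naive libraries of replicates 1 to 4 (31.8 to 40.8 CPM) lay below all EpiLC libraries. Naive replicates 5 and 6 (88.0 and 60.1 CPM) also lay below the EpiLC libraries of their own set (104 to 153 CPM), and replicates 7 and 8 (913 and 239 CPM) above them. In LBRKO cells *Egr1* fell, from 196, 147, 1133 and 307 CPM to 74.8, 69.8, 122 and 128 CPM (-2.18 ± 0.69, adjusted p = 0.00688). Without LBRKO mES replicate 3, the library at 1133 CPM, that call was lost (-1.15, adjusted p = 0.152). In TKO the change was 1.17 ± 0.69 (adjusted p = 0.154), without overlap between the stages.

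**Figure D2:**
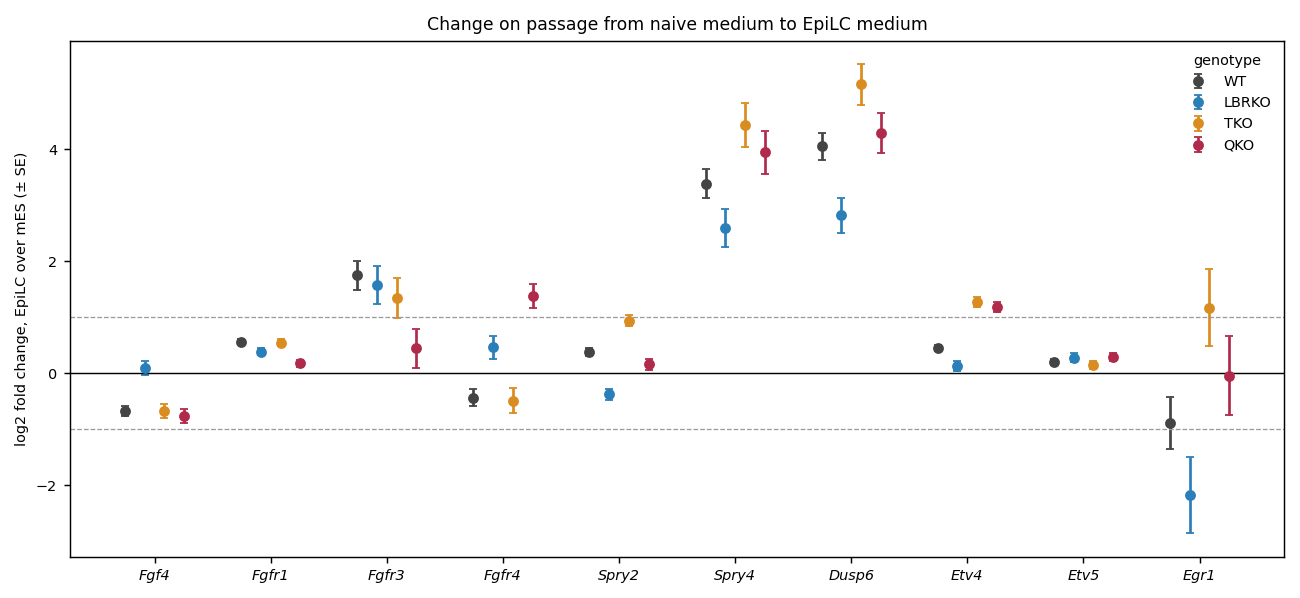
Log2 fold change of each gene from mES cells to EpiLCs, ± SE, in the 4 genotypes; dashed lines mark 2-fold. *Dusp6* and *Spry4* lie above 2-fold in all 4, *Fgfr3* in all but QKO, *Etv4* in TKO and QKO, *Fgfr4* in QKO and *Egr1* in TKO, which missed the adjusted p threshold; in LBRKO *Egr1* lies below the lower line.

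The ligand *Fgf4* (chromosome 7, 144401104 to 144418980) was lower after passage, at 192, 272 and 321 CPM in WT mES cells against 141, 168 and 186 CPM in WT EpiLCs. The groups did not overlap, but the log2 fold change of -0.68 ± 0.09 (adjusted p = 5.56e-09) was under 2-fold. Values of -0.67 ± 0.12 in TKO and -0.77 ± 0.12 in QKO were of similar size, whereas in LBRKO it was 0.09 ± 0.12 (adjusted p = 0.553). The change in LBRKO differed from that in WT by 0.77 ± 0.15 (adjusted p = 0.000195); in mES cells *Fgf4* was at 185, 186, 147 and 151 CPM in LBRKO, below all 8 WT libraries. Of the 16 other FGF ligands that could be tested, of 21 listed, 8 rose and 2 fell in WT, beside 18.2% and 12.9% of all genes. Their median log2 fold change was 1.09, and that of all genes 0.07. *Fgf15* went from 0.151 ± 0.102 to 44.9 ± 7.8 CPM and *Fgf13* from 1.26 ± 0.29 to 14.3 ± 1.9 CPM, while *Fgf10* went from 7.31 ± 2.03 to 0.0994 ± 0.0825 CPM.

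Among the receptors, *Fgfr1* (chromosome 8, 26003670 to 26065734), the main FGF receptor of the epiblast, dominated in every group. It rose from 124 ± 7.2 to 183 ± 10.7 CPM on the adjusted p alone (0.56 ± 0.04, adjusted p = 4.56e-15), and the stages did not overlap. The median gene of chromosome 8 changed by 0.12 in that comparison. Taken per kilobase of exon, *Fgfr1* held 88.7 ± 1.6% of the RNA of the 4 receptor genes in WT mES cells (SD, n = 8) and 92.2 ± 0.8% in WT EpiLCs. *Fgfr3* (chromosome 5, 33879018 to 33894412) and *Fgfr4* (chromosome 13, 55300453 to 55316572) were scarce. *Fgfr3* rose (1.75 ± 0.26, adjusted p = 1.29e-07) from 0.157, 0.328 and 0.818 CPM to 1.03, 1.23 and 2.19 CPM, which is 7 to 25 counts per library against 32 to 64. *Fgfr4* went from 2.36 ± 0.60 to 1.73 ± 0.32 CPM (-0.44 ± 0.15, adjusted p = 0.0114), and in WT replicates 5 to 8 the sign turned (0.04, adjusted p = 0.871).

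**Figure D3:**
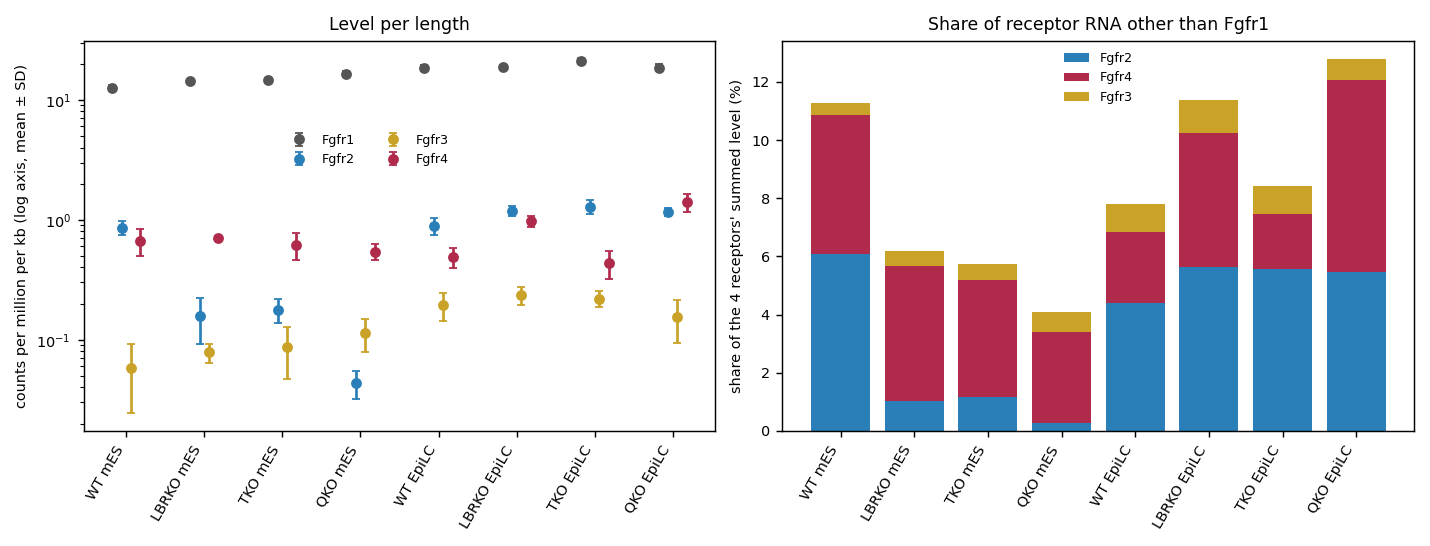
Left, level of the 4 FGF receptor genes in CPM per kilobase of exon, on a log axis, as mean ± SD by group. Right, mean share of the 4 genes' summed level held by *Fgfr2*, *Fgfr4* and *Fgfr3*; the rest, 87.2% to 95.9%, is *Fgfr1*.

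In mES cells the MEK inhibitor is present. Members called there against all 8 WT libraries were higher in LBRKO and lower in TKO and QKO. The call in LBRKO was lost against WT replicates 5 to 8, and those in TKO and QKO against replicates 1 to 4. These are the WT sets whose depth overlapped that of the mutant. Against all 8 WT libraries, LBRKO had 1 member called higher, *Spry4*, and none lower (3.06% and 3.25% of all genes, 6.31% together). TKO had 3 called lower, *Egr1*, *Spry4* and *Dusp6*, and none higher (3.77% and 2.68%, 6.45% together). QKO had 2 called lower, *Egr1* and *Dusp6*, and none higher (6.66% and 10.6%, 17.2% together). These comparisons share the WT libraries. At any fold, 7 members passed in LBRKO (24.0% of all genes), 7 in TKO (21.3%) and 6 in QKO (44.5%). The libraries did not overlap with WT for 5 members in LBRKO (14.0% of all genes), 6 in TKO (14.3%) and 4 in QKO (28.1%). The members' median log2 fold changes were 0.52, -0.29 and -0.19, beside 0.02, -0.01 and 0.01 for all genes.

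*Etv4* and *Fgfr1* were the members whose level lay outside the WT range in every library of all 3 mutants. *Etv4* was at 79.0, 86.9 and 112 CPM in WT, at 138, 127, 144 and 134 CPM in LBRKO, at 50.2, 52.1, 48.9 and 47.6 CPM in TKO and at 43.7 to 50 CPM in QKO. The LBRKO libraries all lay above WT and the TKO and QKO libraries all below. The log2 fold changes were 0.59 ± 0.07 (adjusted p = 1.74e-08), -0.86 ± 0.08 (adjusted p = 6.00e-12) and -0.95 ± 0.08 (adjusted p = 1.31e-13), each under 2-fold. Against WT replicates 1 to 4 the values were 0.44, -1.01 and -1.10, the last 2 past both thresholds, and against replicates 5 to 8 they were 0.75, -0.70 and -0.79. On passage *Etv4* therefore rose in TKO (1.27 ± 0.09) and QKO (1.18 ± 0.09), to 120 ± 4.1 and 106 ± 10.2 CPM (SD, n = 4), beside the 123 CPM of WT EpiLCs. The change on passage differed from that of WT by 0.82 ± 0.10 in TKO and 0.74 ± 0.10 in QKO (adjusted p = 1.75e-07 and 2.86e-07).

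*Dusp6* was also higher in LBRKO and lower in TKO and QKO. Against all 8 WT libraries its changes were larger than those of *Etv4*, but so were their standard errors. *Dusp6* was at 27.1, 25.4, 64.5 and 45.5 CPM in LBRKO mES cells, at 9.71, 11.4, 9.81 and 10.2 CPM in TKO and at 10.4, 9.92, 10.7 and 10.8 CPM in QKO. Every TKO and QKO library was below the lowest WT library (14.6 CPM), whereas the LBRKO libraries overlapped the WT replicates 7 and 8 (59.8 and 28.3 CPM). The log2 fold changes were 0.83 ± 0.26 (adjusted p = 0.0158), -1.16 ± 0.30 (adjusted p = 0.00330) and -1.13 ± 0.30 (adjusted p = 0.00186). Against WT replicates 1 to 4 they were 1.42, -0.57 and -0.54, and against 5 to 8 they were 0.42, -1.56 and -1.54. Leaving out WT replicate 7 ended the calls in TKO (-0.78) and QKO (-0.75) and made one in LBRKO (1.21). Without LBRKO replicate 3 the LBRKO value was 0.50 (adjusted p = 0.216).

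*Spry4* was at 17.6, 15.7, 42.2 and 21.5 CPM in LBRKO mES cells, at 4.96, 3.28, 3.51 and 3.40 CPM in TKO and at 4.94, 5.79, 5.22 and 4.25 CPM in QKO. LBRKO lay above every WT library but replicate 7, and TKO below all 8. The log2 fold changes of 1.29 ± 0.28 (adjusted p = 0.000525) and -1.39 ± 0.35 (adjusted p = 0.00313) were calls, and that of QKO was -0.98 ± 0.34 (adjusted p = 0.0182). Against replicates 1 to 4 the 3 values were 2.2, -0.48 and -0.07, and against 5 to 8 they were 0.77, -1.91 and -1.5. Without WT replicate 7, TKO was at -0.91 and no longer called, and without LBRKO replicate 3, LBRKO was at 0.87 and no longer called.

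*Egr1* was the most variable member among naive libraries. The WT libraries stood at 31.8 to 40.8 CPM in replicates 1 to 4 and at 88.0, 60.1, 913 and 239 CPM in 5 to 8. TKO libraries lay between 19.9 and 32.0 CPM and QKO libraries between 14.2 and 28.5 CPM. Against all WT libraries the log2 fold changes were -2.72 ± 0.67 (adjusted p = 0.00218) in TKO and -3.06 ± 0.69 (adjusted p = 0.000316) in QKO. Against WT replicates 1 to 4 they were -0.42 (adjusted p = 0.485) and -0.76 (adjusted p = 0.0857), and against 5 to 8 they were -3.56 and -3.91. LBRKO gave 1.30 ± 0.55 (adjusted p = 0.0808) against all WT, 3.60 (adjusted p = 2.29e-09) against replicates 1 to 4 and 0.46 (adjusted p = 0.633) against 5 to 8. Without WT replicate 7 it was 2.54 (adjusted p = 3.24e-06), and without LBRKO replicate 3 it was 0.25 (adjusted p = 0.818).

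The libraries at the top of *Egr1*, WT mES replicate 7 and LBRKO mES replicate 3, were also at the top of their groups for *Spry4*, *Dusp6* and *Fos*, an immediate early gene outside the members. *Fos* was at 122 CPM in that WT library and between 9.52 and 51.3 CPM in the other 7, and at 147 CPM in that LBRKO library against 45.8 to 73.6 CPM in the other 3. With both libraries left out, an analysis added after the values had been seen, LBRKO kept *Spry4* (1.34) and gained *Egr1* (1.48). TKO then had only *Egr1* (-1.47) called and QKO only *Egr1* (-1.81), and the fall of *Egr1* on passage in LBRKO was called (-1.15, adjusted p = 0.0177). The libraries were left out for their height in *Egr1*, which narrows its spread, so these calls of *Egr1* are a description only. The change on passage in LBRKO had the same size with only LBRKO replicate 3 left out, and was then not called. What set these libraries apart was not tested. WT mES replicates 5 to 8 were at 88.0, 60.1, 913 and 239 CPM of *Egr1*, and LBRKO mES replicates 1 to 4 at 196, 147, 1133 and 307 CPM. The order was also shared in *Fos* and *Dusp6* but not in *Spry4*. Leaving out WT replicate 7 or LBRKO replicate 3 alone takes away a single side of this likeness. Whether these libraries were made side by side is not in the labels and was not tested.

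**Figure D4:**
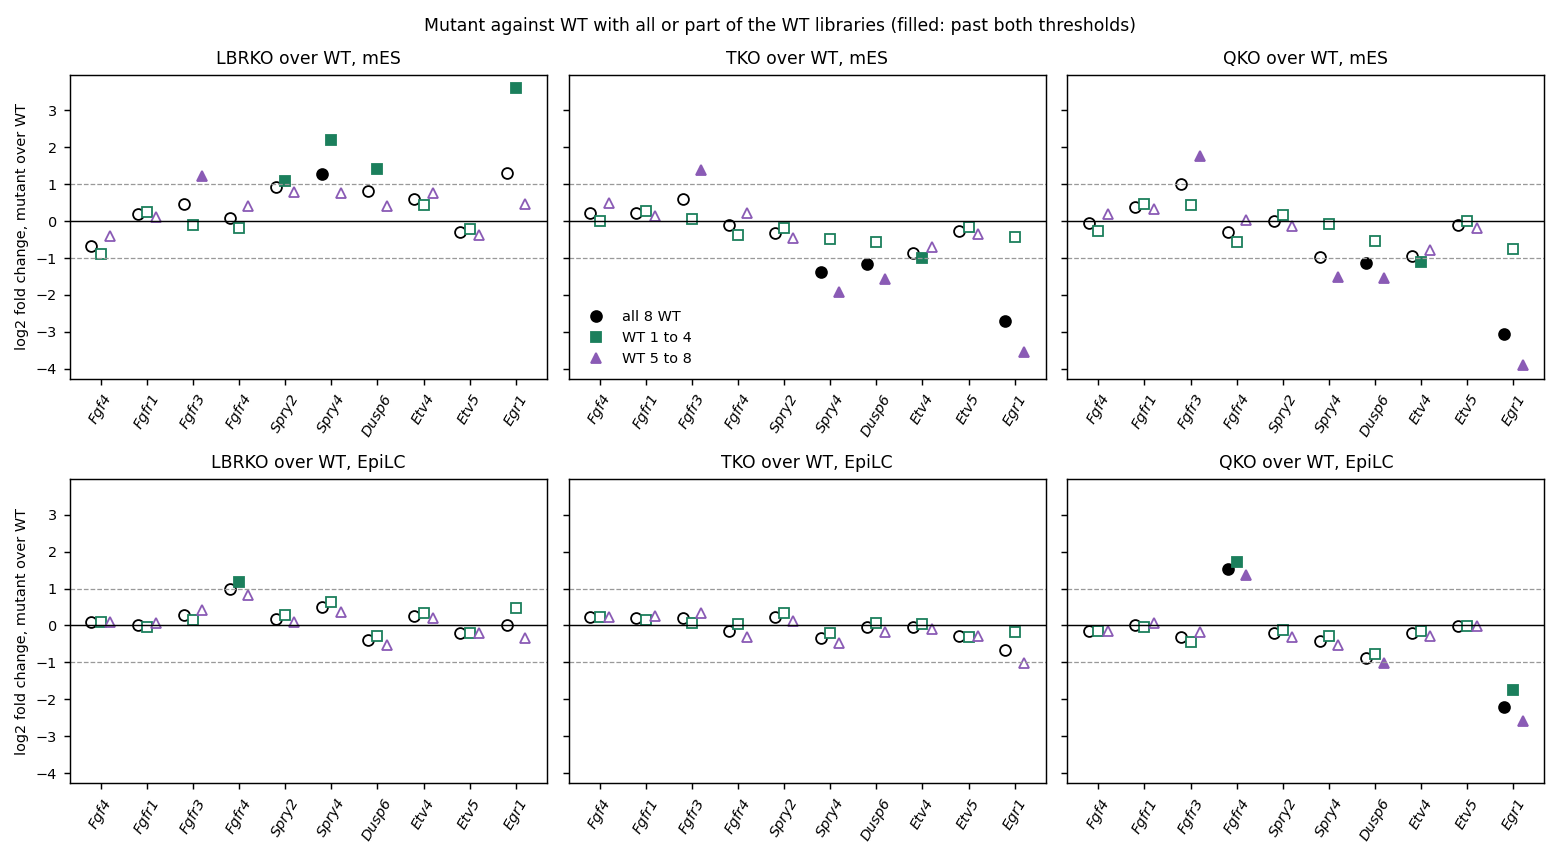
Log2 fold change of each mutant over WT in mES cells (top) and EpiLCs (bottom), against all 8 WT libraries, replicates 1 to 4 and replicates 5 to 8; filled symbols passed both thresholds and dashed lines mark 2-fold. In mES cells *Egr1*, *Spry4*, *Dusp6* and *Etv4* keep their side in each mutant with all 3 sets, whereas their sizes and calls move with the WT set. The exception is *Spry4* in QKO, which hardly differs from WT replicates 1 to 4. In EpiLCs only *Fgfr4* and *Egr1* in QKO are called with all 3 sets.

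*Spry2* was at 62.2, 67.2 and 89.5 CPM in WT mES cells and at 135, 133, 145 and 122 CPM in LBRKO, above every WT library (0.94 ± 0.08, adjusted p = 6.84e-12). The value was 1.09 against replicates 1 to 4 and 0.80 against 5 to 8. In TKO it was at 53.8 to 59.9 CPM, below every WT library (-0.33 ± 0.09, adjusted p = 0.00451), and in QKO at 66.9 to 74.4 CPM (0.00 ± 0.09). On passage *Spry2* went down in LBRKO (-0.38 ± 0.10) and up in TKO (0.94 ± 0.10), each under 2-fold, and these differed from the change in WT by -0.76 ± 0.12 and 0.55 ± 0.12 (adjusted p = 6.27e-06 and 0.00156). *Fgf4* was lower in LBRKO mES cells (-0.67 ± 0.11, adjusted p = 6.47e-06; -0.89 and -0.41 against the 2 sets of WT). *Etv5* was at -0.30 ± 0.06 in LBRKO and -0.26 ± 0.06 in TKO (adjusted p = 0.000350 and 0.00229).

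*Fgfr1* was higher than in WT by under 2-fold in each mutant in mES cells: 0.19 ± 0.05 in LBRKO, 0.21 ± 0.05 in TKO and 0.39 ± 0.05 in QKO (adjusted p = 0.00759, 0.00273 and 5.89e-08). By karyotype TKO cells carry an extra chromosome 8, as does a minority of the WT cells, and the median gene of that chromosome changed by 0.09, -0.01 and 0.07. The share of receptor RNA that *Fgfr1* held was 93.8 ± 0.4%, 94.3 ± 0.6% and 95.9 ± 0.4% (SD, n = 4). Beside it, *Fgfr2*, a receptor known for its role in the primitive endoderm, was at 7.43 to 10.3 CPM in WT mES cells, 1.03 to 2.25 in LBRKO, 1.49 to 2.44 in TKO and 0.314 to 0.552 CPM in QKO. *Fgfr3* and *Fgfr4* gave no call in any mutant against all WT mES libraries. *Fgfr3* was called higher against WT replicates 5 to 8 alone, by 1.23 in LBRKO, 1.38 in TKO and 1.76 in QKO, and not against replicates 1 to 4 (-0.10, 0.05 and 0.44). Primitive endoderm markers summed to 8.47 to 10.2 CPM in WT mES cells, 19.5 to 22.1 in LBRKO, 6.33 to 6.87 in TKO and 3.22 to 5.11 in QKO. Of the 7 markers 2 were called higher in LBRKO, 1 lower in TKO and 4 lower in QKO. Their part in these values was not tested, and in bulk RNA fewer cells of a type and less RNA per cell cannot be told apart.

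The other lists were read against the shares of all genes called in mES cells, 6.31% in LBRKO, 6.45% in TKO and 17.2% in QKO. Of 16 other FGF ligands, 1 rose and 3 fell in LBRKO, 3 fell in TKO, and 2 rose and 4 fell in QKO. Of 16 other receptors and co-receptors, 1 rose and 2 fell in LBRKO, 2 fell in TKO and 4 fell in QKO. Of 13 genes that report other medium signals, 2 rose and 3 fell in LBRKO, 3 fell in TKO and 3 fell in QKO. Of 14 other inhibitors tested, none was called in LBRKO, 1 fell in TKO (*Dusp4*, a nuclear ERK phosphatase, -1.25 ± 0.39) and 2 fell in QKO (*Dusp4* and *Spry1*). None of 19 genes of the cascade from adaptor to ERK was called in any mutant, with medians of 0.06, -0.12 and -0.10. Of 20 other ERK-induced transcription factors, 5 rose in LBRKO, 6 fell in TKO, and 6 fell and 1 rose in QKO, with medians of 0.38, -0.60 and -0.39 beside 0.02, -0.01 and 0.01 for all genes. These counts also moved with the WT libraries. Against WT replicates 1 to 4, 8 of 19 tested rose in LBRKO, 1 rose and 1 fell in TKO, and 2 rose and 3 fell in QKO; against replicates 5 to 8, 2 rose, 8 fell, and 6 fell and 1 rose. Without WT replicate 7, 6 rose in LBRKO, 3 fell in TKO, and 5 fell and 1 rose in QKO. *Fosl2*, an AP-1 subunit, was at 34.8 to 36.7 CPM in LBRKO, 6.05 to 12.6 in WT, 1.83 to 3.07 in TKO and 0.864 to 1.46 CPM in QKO, with no overlap between these groups. *Jun* fell (-1.45 ± 0.24) and *Etv1*, the third PEA3-type factor, rose (1.43 ± 0.14) in QKO.

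In EpiLCs, with FGF present and the inhibitor gone, no member was called in LBRKO or TKO by edgeR or by DESeq2. Of all genes, 5.67% were called by edgeR in LBRKO (3.04% higher, 2.63% lower) and 2.91% in TKO (1.44% higher, 1.48% lower); at an unadjusted p under 0.05, 4 members passed in each, none over 2-fold. At the adjusted p alone, 3 passed in LBRKO (25.2% of all genes) and 2 in TKO (14.7%), and 2 and 3 did not overlap with WT (13.1% and 9.21%). The largest value in LBRKO was that of *Fgfr4*, 0.98 ± 0.18 (adjusted p = 3.18e-05), at 3.63, 3.65, 2.93 and 3.51 CPM against 1.33, 1.63 and 2.13 CPM in WT, without overlap. It passed 2-fold against replicates 1 to 4 (1.18) and not against 5 to 8 (0.83). In TKO the largest that passed the adjusted p was *Etv5* (-0.30 ± 0.06, adjusted p = 0.000667).

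QKO EpiLCs had 2 members called against WT, *Fgfr4* higher and *Egr1* lower, beside 21.2% of all genes (13.0% higher, 8.16% lower). At any fold 5 passed (54.8% of all genes), and 3 did not overlap with WT (37.5%). *Fgfr4* was at 3.96, 4.64, 5.86 and 5.52 CPM (110 to 197 counts), above every WT, LBRKO and TKO EpiLC library. The log2 fold change was 1.52 ± 0.18 (adjusted p = 1.01e-09) against WT, 1.72 and 1.36 against the 2 WT sets, and 1.69 ± 0.22 (adjusted p = 3.42e-08) against TKO, where it was the only member called (15.3% of all genes, 9.97% higher and 5.29% lower). At any fold 6 members differed between QKO and TKO EpiLCs (41.9% of all genes), and 7 did not overlap (42.3%). The change on passage exceeded that in WT by 1.82 ± 0.26 (adjusted p = 4.77e-07). *Fgfr4* held 6.59 ± 0.68% of receptor RNA in these cells against 2.44 ± 0.55% in WT EpiLCs, with *Fgfr1* still at 87.2 ± 0.8%. The median gene of chromosome 13 changed by 0.10 against WT.

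*Egr1* was at 20.8, 20.8, 20.5 and 22.0 CPM in QKO EpiLCs, below the lowest WT (63.0), LBRKO (69.8) and TKO (54.3) library. The change was -2.22 ± 0.66 (adjusted p = 0.00402) against WT, and -1.74 and -2.58 against the 2 sets. Against TKO it was -1.56 ± 0.70 (adjusted p = 0.0698), which missed the threshold although the groups did not overlap. *Dusp6* was at 195, 208, 213 and 206 CPM, below the lowest WT library at 224 CPM and the lowest TKO library at 347 CPM. Its values of -0.89 ± 0.27 against WT (adjusted p = 0.00443) and -0.84 ± 0.30 against TKO (adjusted p = 0.0210) were under 2-fold. Against WT replicates 1 to 4 it was -0.76, and against 5 to 8 it was -1.01 (adjusted p = 0.00327), past both thresholds. *Spry4* (-0.42 ± 0.28, adjusted p = 0.213) and *Etv5* (-0.01 ± 0.06) gave no difference from WT past the threshold. Between QKO and TKO mES cells no member was called by edgeR or DESeq2 (6.21% of all genes were, 4.09% higher and 2.12% lower), with 4 at an unadjusted p under 0.05, none over 2-fold. For 4 members these groups did not overlap (30.8% of all genes).

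The other lists in QKO EpiLCs were read against the 21.2% of all genes called there. Of 20 other ERK-induced transcription factors, 6 fell and 2 rose (median -0.66, all genes -0.01). *Fos* was at 2.56 to 3.73 CPM against 8.06 to 34.0 in WT (-2.39 ± 0.57), and *Ier3*, an ERK-induced survival gene, fell by 1.65 on the log2 scale. Of 14 other inhibitors, 3 fell and 1 rose: *Dusp9*, a cytoplasmic ERK phosphatase, was at 79.5 to 96.1 CPM against 179 to 332 in WT, *Spry1* and *Dusp1* fell, and *Dusp4* was at 251 to 331 CPM against 84.5 to 160. Of 19 cascade genes, *Mapk3*, which encodes ERK1, was called lower, at 42.8 to 49.5 CPM against 92.5 CPM on average in WT (-1.02 ± 0.06). *Sdc4*, a heparan sulphate co-receptor of FGFs, was at 214 to 257 CPM against 37.4 to 48.9 in WT, and was called higher, and *Fgfrl1* lower, of 16 other receptors and co-receptors. Naive markers summed to 143 to 169 CPM in QKO EpiLCs and 104 to 173 CPM in WT EpiLCs, and EpiLC markers to 2857 to 2980 and 3867 to 4674 CPM. Primitive endoderm markers summed to 10.5 to 15.2 and 12.2 to 15.4 CPM. Within these sums single markers were called in both directions: *Esrrb* and *Zfp42* higher and *Nanog* lower of 6 naive markers, and *Gata6* and *Pdgfra* higher and *Sox7* and *Dab2* lower of 7 primitive endoderm markers. None of 5 EpiLC markers was called. The part of these markers in the members' values was not tested.

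Whether the change on passage differed between genotypes was tested as an interaction. In LBRKO the change of *Dusp6* was smaller than in WT by 1.24 ± 0.37 (adjusted p = 0.0163; 6.0% of all genes were called). Without LBRKO mES replicate 3 the value was -0.91 (adjusted p = 0.103) and with WT replicates 5 to 8 alone -0.95 (adjusted p = 0.137), neither of them called. In TKO no member was called by edgeR or DESeq2 (3.03% of all genes were), with 3 at an unadjusted p under 0.05 over 2-fold. In QKO *Fgfr4* was called, as above, and *Fgfr3* (-1.31 ± 0.44, adjusted p = 0.020; 12.6% of all genes), from 0.455 to 1.03 CPM before passage to 0.735 to 1.64 CPM after it. That call of *Fgfr3* was lost with WT replicates 1 to 4 alone and without the low-count filter. In WT mES cells *Fgfr3* was at 0.326 to 0.818 CPM in replicates 1 to 4 and at 0.157 to 0.330 CPM in 5 to 8. Whether the loss of LBR acted differently with and without lamins gave no member call at either stage by edgeR or DESeq2 (7.5% and 8.05% of all genes were called), with 4 and 6 at an unadjusted p under 0.05, none over 2-fold. At any fold, *Etv4* (-0.67 ± 0.11), *Spry2* (-0.61 ± 0.13) and *Etv5* (0.46 ± 0.10) passed in mES cells.

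The other lists were also counted on WT passage, beside the 18.2% of all genes called higher and 12.9% called lower. Of 14 other inhibitors 7 rose and none fell (median 1.03), among them *Dusp4*, from 3.17 to 17.5 CPM up to 84.5 to 160 CPM, *Dusp9* (2.59 ± 0.12), *Spred3* (2.34 ± 0.08) and *Dusp5* (2.04 ± 0.13). Of 20 ERK-induced transcription factors 8 rose and 2 fell (median 0.79), with *Myc* at 4.28 ± 0.25, *Ets1* at 3.37 ± 0.16, *Etv1* at 1.53 ± 0.12 and *Elk3* at -2.06 ± 0.11. The 19 cascade genes had a median of 0.05, and *Ksr1*, a scaffold of the cascade, fell (-1.0 ± 0.07). Of 16 other receptors and co-receptors 3 rose and 4 fell, *Sdc1* and *Gpc3* among the former, *Sdc4* and *Sulf2* among the latter (median 0.00). Of 13 genes that report the other medium signals, 5 rose and 7 fell, with the WNT targets *Sp5* and *Cdx1* and the LIF-responsive *Tfcp2l1* lower.

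The genes whose 8 group means of log2 CPM followed those of a member most closely were listed as a description. For *Dusp6* they were *Dlg4*, *Slc39a8* and *Gbp2* (Pearson r over 8 groups, 0.999, 0.998 and 0.998), and for *Spry4* *Ap5b1*, *Tubb6* and *Pdlim2* (0.998, 0.996 and 0.993). For *Etv4* they were *Fam20c*, *Evc2* and *Zfp248* (0.997, 0.986 and 0.983), and for *Fgfr1* *Spaca6*, *Anpep* and *Adgrb2* (0.981, 0.979 and 0.978). A likeness of 0.95 or more was reached by 1018 tested genes for *Dusp6* and 495 for *Spry4*, both of which mainly separate the stages, but by 48 for *Etv4* and 31 for *Fgfr1*.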

How the data were processed

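Total RNA was sequenced after ribosomal RNA depletion with a stranded kit. Per the study's methods, the authors trimmed reads with cutadapt 2.5, aligned them to GRCm39 with STAR 2.7.10a, keeping 1 alignment per read, and counted reads per GENCODE M30 gene with featureCounts 1.6.4; the deposited values are raw counts. A second deposited table, of counts in which multimapping reads were spread over their positions, served as an alternative. The repeat table was not used. Positions of genes are GRCm39 as in the annotation used for counting, whereas promoter windows follow the starts of M39. Of the members, only *Fgfr3* and *Etv4* have the same span in both. The *Spry2* window lies upstream of the whole gene span given here, as M39 places the start of that gene further upstream. Gene IDs were paired with symbols through GENCODE M39 (56017 of 56748).

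Counts were filtered with filterByExpr and scaled by TMM, and 1 model over the 8 groups was fitted in edgeR 4.0.16 (quasi-likelihood test), with Benjamini-Hochberg adjustment over 23399 genes; the 17 comparisons were contrasts of that model. Standard errors are the log2 fold change divided by the square root of the F statistic. The code was tested on simulated data. Depth was 22.6 M to 48.9 M counts per library, and low genes carry counting error of their own. Alternatives were RLE scaling, no low-count filter, a replicate block, counts with multimapping reads, each set of 4 WT replicates, only the groups compared, DESeq2 1.42.0 and leaving out each library. Counts in the lists under the WT sets and without single libraries were added after the data were seen. The members and gene lists were chosen with earlier results of these data known. Named were all members and, per list and comparison, at most 4 called genes whose libraries did not overlap and whose higher group averaged at least 5 CPM, by size of change; the *Fos* levels beside *Egr1* in mES cells, the uncalled *Lmna* levels and the primitive endoderm markers named were chosen after their values were seen. For 4 members the 3 named genes nearest in group means were taken. Some results for single genes of the lists are not reported here.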

Additional observations from a re-analysis of the deposited data

Results flagged for a closer look

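In 5 cases a library stood apart from its group in a member, among 80 sets of 1 member in 1 group examined, of which chance alone flags about 1 in 20. *Spry4* and *Dusp6* were highest in WT mES replicate 7, at 29.4 and 59.8 CPM. *Spry4* was highest in TKO mES replicate 1, at 4.96 CPM. *Fgfr1* was highest in QKO mES replicate 2, at 177 CPM, and lowest in WT EpiLC replicate 8, at 161 CPM.

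The change on passage differed from that in WT, by an interaction term with an adjusted p under 0.05, for these members on the log2 scale. In LBRKO the differences were 0.77 for *Fgf4*, 0.90 for *Fgfr4*, -0.76 for *Spry2*, -1.24 for *Dusp6* and -0.32 for *Etv4* (15.5% of all genes passed). In TKO they were 0.55 for *Spry2* and 0.82 for *Etv4* (8.44%). In QKO they were -0.39 for *Fgfr1*, -1.31 for *Fgfr3*, 1.82 for *Fgfr4* and 0.74 for *Etv4* (29.8%). The effect of LBR loss differed between cells with and without lamins in mES cells by -0.61 for *Spry2*, -0.67 for *Etv4* and 0.46 for *Etv5* (17.6%), and in EpiLCs by -0.48 for *Fgf4*, -0.62 for *Spry2*, -0.44 for *Etv4* and 0.51 for *Etv5* (24.3%). Only *Dusp6* in LBRKO and *Fgfr3* and *Fgfr4* in QKO also passed 2-fold.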

How the results depend on the processing

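Counts of members called kept within 1.5 times their value under RLE scaling, DESeq2 and counts with multimapping reads in all 17 comparisons. They moved elsewhere as follows. In mES cells against WT, LBRKO (1) had 4 with a replicate block, 4 with WT replicates 1 to 4 and 2 without both libraries high in *Egr1*; TKO (3) had 0, 1 and 1, and QKO (2) had 1, 1 and 1, with 4 against WT replicates 5 to 8 and 4 without the low-count filter. In EpiLCs, LBRKO against WT (0) had 1 without the filter, with WT replicates 1 to 4 and with only the groups compared, and QKO against TKO (1) had 2 without the filter, with the block and with only the groups compared. The interaction counts were 3 (block), 4 (WT 1 to 4), 0 (WT 5 to 8), 2 (both libraries out) and 0 (only the groups compared) for LBRKO (1); 1 (no filter), 1 (WT 1 to 4) and 3 (WT 5 to 8) for TKO (0); and 1 without the filter and 1 with WT 1 to 4 for QKO (2). For LBR by lamin in mES cells (0) they were 3 with the block, 3 with WT 1 to 4 and 1 without both libraries, and in EpiLCs (0) 1 with the block, with WT 1 to 4 and with only the groups compared. The replicate block changed no other count by more than 1.5 times. The labels do not say whether equal numbers mark a shared day. In none of the group pairs did every same-numbered pair correlate over 0.1. Between the WT stages the 8 pairs ran from 0.00718 to 0.451, and 3 correlated best with their own number. Only equal numbers were compared or blocked, so a match between WT replicates 5 to 8 and LBRKO replicates 1 to 4 could not show.

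Without each library in turn, the counts ranged from 3 to 4 for WT passage, 0 to 3 for LBRKO, 1 to 3 for TKO and 1 to 4 for QKO mES cells against WT, 0 to 1 for LBRKO EpiLCs, 3 to 4 for LBRKO passage, 0 to 3, 0 to 1 and 1 to 2 for the LBRKO, TKO and QKO interactions and 0 to 3 for LBR by lamin in mES cells; the others did not move. Over single members, 2 values reversed: *Fgfr4* on WT passage was 0.0436 with WT replicates 5 to 8, and *Egr1* was 0.94 with WT replicates 1 to 4. Another 123 values changed sign with an adjusted p of 0.05 or more in both fits. What set the WT libraries apart was not tested. At 7 to 25 counts per library, *Fgfr3* in WT mES cells carries counting error. Replicates 5 to 8, the deeper libraries, held 7 to 13 counts and replicates 1 to 4 held 9 to 25.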
